A study of Drosophila melanogaster with 6 samples.

Results

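The genes described here are park, Pink1, Lrrk, Vps35 and aux, fly relatives of genes mutated in familial Parkinson disease, and Sod1, Sod2 and Cat, which encode enzymes that remove superoxide and hydrogen peroxide. They were taken by gene symbol and are 8 of the 17737 genes in the count table. RNA-seq was performed on PPL1-γ1pedc dopamine neurons (DANs), which innervate a part of the mushroom body used in aversive memory, from 3rd instar larvae of Drosophila melanogaster 120 h after egg laying. In both groups the driver ∆TH-D'-GAL4, which at this stage labels mainly these neurons in the central brain, expressed UAS-dicer2 and UAS-mCD8:GFP, a membrane marker used to find the cells. The 3 Stromalin KD libraries also carried UAS-Stromalin RNAi against the cohesin subunit Stromalin, and the 3 control libraries did not. The labels call the control genotype WT, although it carried the driver, the marker and dicer2. Each library held 25 GFP-positive neurons picked by hand from pooled brains of many larvae, so that each value is a pool over animals. Since these are bulk libraries, fewer cells expressing a gene and less of its RNA per cell cannot be told apart.

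Pink1, a kinase that accumulates on damaged mitochondria, activates the ubiquitin ligase encoded by park, and the pair marks such mitochondria for removal. Lrrk encodes a kinase related to human LRRK2, which phosphorylates Rab GTPases of the endolysosomal system. Vps35 is the core of retromer, the complex that retrieves receptors from endosomes, and auxilin, encoded by aux, brings the chaperone Hsc70 to clathrin coats so that they come apart after endocytosis. Sod1, in the cytosol, and Sod2, in the mitochondrial matrix, convert superoxide to hydrogen peroxide, which catalase, encoded by Cat, breaks down in peroxisomes. Dopamine neurons are known for a high oxidative load, because dopamine itself oxidizes and is broken down to reactive products.

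Depth, the sum of counts over genes, ran from 7790921 to 9625056 per library, of which rRNA genes held 16.5% to 30.2%. Libraries had between 2298 and 4004 genes at 10 counts or more, the lowest in control 3 and the highest in control 2. The common coefficient of variation between libraries of a group was 228% in edgeR. Dopamine neuron markers (ple, Vmat, DAT, Ddc, Pu) all had counts, 4 of 5 at 10 counts or more in all 6 libraries. Of markers of other cells, all 4 of neuroblasts and all 4 of blood cells were at 0 throughout, as were repo and alrm of 6 for glia and 4 of 9 for other transmitters. The glial marker nrv2 had 3824 counts in control 2, 1187 in Stromalin KD 1 and 728 in Stromalin KD 2, the libraries that also held the most of the 8 genes, and 0 to 3 elsewhere. The other 3 glial markers with counts, Eaat1, Gs2 and moody, were each seen in 1 library, at 62 to 430 counts. Among markers of other transmitters, VGAT had 1762, 500 and 1737 counts in Stromalin KD and 112 in control 1, SerT had 786 in Stromalin KD 1, VAChT and VGlut had 486 and 7 in Stromalin KD 3, and Tbh had 617 in control 3. Of 6 fat body markers, 6 were at 10 counts or more in control 2, 2 in Stromalin KD 2 and 1 in Stromalin KD 3. None reached 10 counts in control 1, control 3 or Stromalin KD 1. Lsp1gamma had 5593 counts in control 2, and Lsp1beta had 2155 in control 2 and 5686 in Stromalin KD 3. The part of all these markers in the values of the 8 genes was not tested. SA, the gene of Stromalin, was found in 1 control library and was near or at 0 in the other 5, controls included, so that it could not check the labels.

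Of the 8 genes, aux was the only one found at 10 counts or more in all 6 libraries. Sod1 was found in 5, Lrrk in 4, and Pink1, Vps35, Sod2 and Cat in 2 each, whereas park had 0 counts throughout. In all, 23 of 48 gene and library combinations reached 10 counts. By library these were 3, 5 and 2 of the 8 genes in control 1, 2 and 3, and 5, 5 and 3 in Stromalin KD 1, 2 and 3. The libraries that held few of the 8 also held few genes overall. Of all tested genes, 57.2%, 82.4% and 52.6% were at 10 counts or more in control 1, 2 and 3, and 77.6%, 70.2% and 52.9% in Stromalin KD 1, 2 and 3. A count of 0 allowed up to 3 counts, or 0.312 to 0.385 in units of CPM (counts scaled to library size), so a gene at 0 was not shown to be absent. This limit covers counting error only, and what gave a 0 in a library was not tested.

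**Figure D1:**
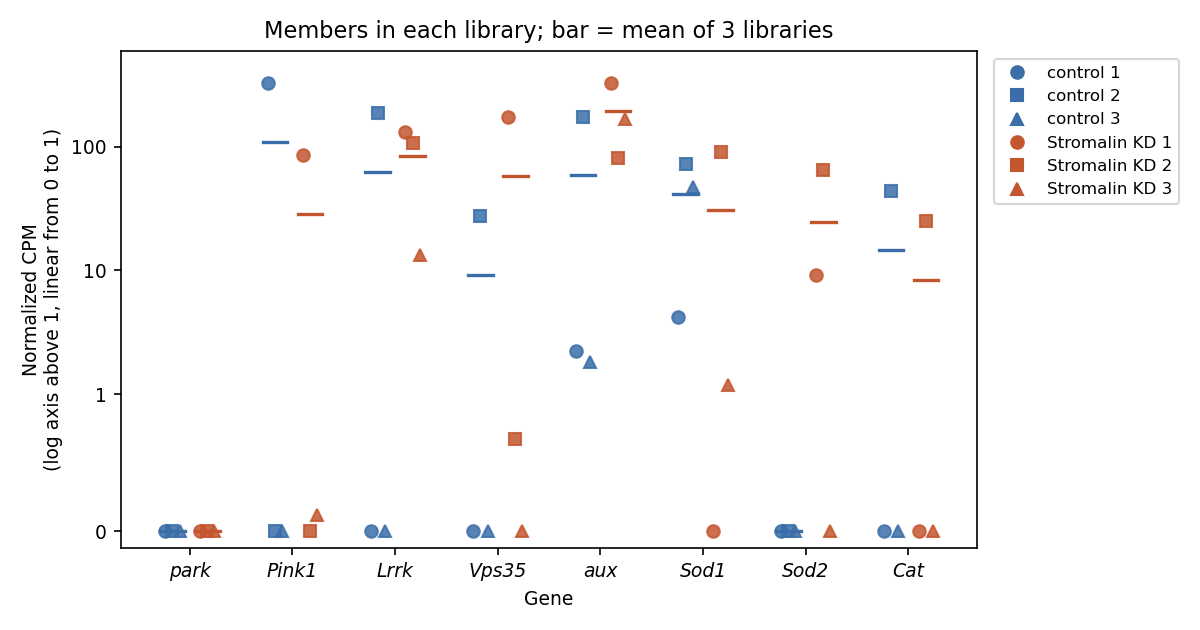
Normalized CPM (vertical axis, logarithmic above 1 and linear below) of each gene in each library, blue for control and orange for Stromalin KD, with a bar at the mean of 3 libraries. For every gene the ranges of control and Stromalin KD overlap, and most points lie either above 10 or at 0.

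Per transcript length (TPM), the mean over the 6 libraries was highest for Sod1, at 148 ± 172 (SD, n = 6), followed by aux at 82.4 ± 76.0 and Pink1 at 51.3 ± 95.1. Sod2 at 39.8 ± 86.3, Lrrk at 28.6 ± 32.0, Vps35 at 27.6 ± 55.0 and Cat at 19.1 ± 31.1 came next, and park was last at 0. By median, Sod1 (88.7) and aux (86.1) again came first and Lrrk (24.3) next, whereas Vps35 (0.332) and Pink1 (0.055) lay near 0 and Sod2, Cat and park at 0, so that the place of Pink1 by mean rested on control 1, which held 75.6% of its counts. No 2 neighbours in the order of means differed by more than their SDs. Where a gene was found, it could be abundant: Sod1 stood at the 88.6th percentile of TPM among the genes found in Stromalin KD 2 and at the 11.4th in Stromalin KD 3.

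The mitochondrial quality control pair was compared between genotypes first. For park (FBgn0041100, chromosome 3L 21194754 to 21196853, minus strand, BDGP6), no library gave a count and no comparison could be made. Its exons share 1076 bases, 63.8% of their length, with an antisense RNA, asRNA:CR45951, which was also at 0 in all 6 libraries. The sources used here do not give the strand setting of the counting, and reads that fall in exons of more than 1 gene may have been left out, which was not tested.

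Pink1 (FBgn0029891, X 6683798 to 6687302, plus strand) held 2366 counts in control 1 and 0 in control 2 and 3. In Stromalin KD it held 763 counts in library 1, 0 in library 2 and 1 in library 3. One library of each genotype was thus high and the remaining 4 were at or next to 0. The control mean was 110 ± 190 normalized CPM (counts over library size scaled by TMM) and the Stromalin KD mean was 28.8 ± 49.8 (SD, n = 3). The edgeR log2 fold change of Pink1, Stromalin KD over control, was -1.93 with an SE of 3.60 and an adjusted p of 1.00. Without control 1 the difference of means turned from -80.8 to 28.8 normalized CPM, so its direction rested on that library. A further 62 genes, among them Usp30, the deubiquitinase that opposes park, were found in the same pair of libraries, out of 1070 others found in exactly 2.

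The genes of membrane traffic followed. Lrrk (FBgn0038816, 3R 20635480 to 20644279, plus strand) had 1981 counts in control 2 and 0 in the other controls. It had 1156, 1122 and 113 counts in Stromalin KD 1, 2 and 3. All 3 Stromalin KD libraries thus held Lrrk, yet the highest value belonged to a control, and the control mean of 63.2 ± 109 normalized CPM lay within the spread of the Stromalin KD mean of 83.9 ± 62.2 (SD, n = 3). The edgeR log2 fold change of Lrrk was 0.41 with an SE of 3.41 and an adjusted p of 1.00. Without control 1, control 3 or Stromalin KD 1 the difference of means turned negative, down to -10.8 normalized CPM, and without control 2 it was 83.9. In DESeq2 without control 2, which leaves both controls at 0, Lrrk passed the threshold at an adjusted p of 0.00444, as did 19.8% of the 4113 genes given one. Lrrk then had counts in Stromalin KD only and entered the fit through the group where it is high. Exons of Lrrk share 126 bases with GluRIIE on the opposite strand, a gene with 430 counts in Stromalin KD 2 only.

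Vps35 (FBgn0034708, 2R 22185972 to 22189886, plus strand) was counted 291 times in control 2 and 1535 times in Stromalin KD 1. It had 7 counts in Stromalin KD 2 and was at 0 in the other 3 libraries. Stromalin KD 1 alone held 83.7% of its counts. Its control mean was 9.28 ± 16.1 normalized CPM and its Stromalin KD mean 58.1 ± 100 (SD, n = 3), with an edgeR log2 fold change of 2.64, an SE of 4.46 and an adjusted p of 1.00. The difference of means turned from 48.8 to -8.94 normalized CPM without Stromalin KD 1. Exons of Vps35 share 70 bases with Swim on the opposite strand, a gene with 400 counts in control 2 and 0 in Stromalin KD 1. Whether reads in the shared bases were added to the Vps35 count or left out of it was not tested. Jafrac2, a peroxiredoxin gene, and maf-S, a partner of cnc, were found in the same pair of libraries as Vps35.

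For aux (FBgn0037218, 3R 4211783 to 4227518, plus strand), the controls gave 16, 1817 and 14 counts. The Stromalin KD libraries gave 2910, 856 and 1429 counts. Control 1 and 3 lay far below every Stromalin KD library, but control 2 lay above Stromalin KD 2 and 3, so that the groups overlapped. In normalized CPM the highest control was 95.7 times the lowest, whereas in Stromalin KD this ratio was 4.01. The mean was 59.3 ± 99.2 over the controls and 194 ± 125 over the Stromalin KD libraries (SD, n = 3). The edgeR log2 fold change was 1.71 with an SE of 2.77 and an adjusted p of 1.00, and DESeq2 gave 1.82 with an SE of 2.43 and an adjusted p of 1.00. Leaving out any 1 library kept aux higher in Stromalin KD, by 66.5 normalized CPM without Stromalin KD 1 to 192 without control 2. None of these leave-outs passed the threshold in edgeR or DESeq2, the lowest adjusted p being 0.0543, in DESeq2 without control 2. DESeq2 gave aux no adjusted p when a Stromalin KD library was left out.

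Among the antioxidant enzymes, Sod1 (FBgn0003462, 3L 11112281 to 11113740, minus strand) was at 30, 763 and 367 counts in the 3 controls. Stromalin KD 1, 2 and 3 gave 0, 957 and 10 counts, so that both the highest and the lowest library were Stromalin KD. The controls averaged 41.6 ± 34.8 normalized CPM and the Stromalin KD libraries 31.0 ± 52.6 (SD, n = 3). The edgeR log2 fold change was -0.43 with an SE of 4.17 and an adjusted p of 1.00. The sign of the difference of means turned without control 2, Stromalin KD 1 or Stromalin KD 3, over a range of -41.0 to 5.08 normalized CPM for all leave-outs.

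Sod2 (FBgn0010213, 2R 16772785 to 16773915, minus strand) was at 0 in all 3 controls. The Stromalin KD libraries held 81, 684 and 0 counts. Stromalin KD 3 thus tied with the controls, and 89.4% of the counts came from a single library. Its Stromalin KD mean was 24.9 ± 35.5 normalized CPM (SD, n = 3). This was 210.5 times the limit of 3 counts summed over the controls, a ratio that takes this mean as exact. The ratio covers counting error only and not the spread between libraries, in which Stromalin KD 3 was also at 0. It is thus no lower bound on a difference between genotypes. The same ratio was 38.7 without Stromalin KD 2, 124 without control 2 and 316 without Stromalin KD 3. The fitted edgeR log2 fold change of 10.78 (SE 6.02), which depends on the prior count and is no bound, had an unadjusted p of 0.0733 and an adjusted p of 0.809. DESeq2 gave 10.04 with an SE of 3.52, an unadjusted p of 0.00434 and an adjusted p of 0.0674. Both tools left Sod2 short of the threshold with all libraries, but DESeq2 called it higher when control 3, Stromalin KD 1 or Stromalin KD 3 was left out, with adjusted p of 0.0497, 2.06e-07 and 0.0170. Those fits called 17.9%, 18.4% and 16.3% of the genes given an adjusted p. With counts in Stromalin KD only, Sod2 entered every fit through the group where it is high, so these calls describe the tool's settings and are no independent support. Without Stromalin KD 2 the difference of means fell from 24.9 to 4.58 normalized CPM.

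Cat (FBgn0000261, 3L 18822604 to 18828188, plus strand) held 456 counts in control 2, 263 in Stromalin KD 2 and 0 in the other 4 libraries. One library of each genotype held it, at 43.6 and 25.2 normalized CPM. The control mean of 14.5 ± 25.2 and the Stromalin KD mean of 8.40 ± 14.6 (SD, n = 3) gave an edgeR log2 fold change of -0.79 with an SE of 4.36 and an adjusted p of 1.00. Its difference of means turned from -6.14 to 8.40 normalized CPM without control 2. With that library out, which leaves the remaining controls at 0, DESeq2 called Cat higher in Stromalin KD at an adjusted p of 2.59e-05, again for a gene with counts in Stromalin KD only. Fat body markers, 6 of 6 with counts, ranged in summed level from 0 to 1049 normalized CPM across the controls and from 0.113 to 674 across the Stromalin KD libraries. Control 2 had the highest sum, Stromalin KD 3, which held no Cat counts, the next at 674, and Stromalin KD 2 followed at 57.2, none of the 6 markers being at 0 throughout, and their part in the Cat counts was not tested.

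Across the 7 tested genes, 4 had a positive and 3 a negative edgeR log2 fold change. None passed an adjusted p of 0.05 in edgeR, in a comparison in which 0.0489% of the 4093 tested genes did. None had an unadjusted p under 0.05 in edgeR, against 3.23% of all tested genes, and none was called by DESeq2 with all libraries, against 5.46% of the 2930 genes given an adjusted p. DESeq2 gave no adjusted p to Pink1, Vps35 and Cat there. With its filters off it called 1 of the 8, Sod2, along with 21.1% of 6922 genes, and it called none without control 1 or without Stromalin KD 2, where it called 16.7% of the genes given an adjusted p each time. Their median log2 fold change was 0.41, beside 0.07 for all tested genes, and their median absolute change was 1.71, beside 1.59. The groups were disjoint in normalized CPM for 0 of 7, against 6.62% of all tested genes. In exact permutation tests of the 8 genes, two-sided, in which 3 against 3 libraries cannot go below 0.1, p was 0.3 for aux, 0.4 for Sod2, 0.7 for Vps35, 0.8 for Lrrk and Sod1, and 1 for Pink1, Cat and park. The edgeR SEs, computed from the fold change and the F statistic, ran from 2.77 to 6.02 on the log2 scale. A missed threshold therefore does not show equal levels.

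**Figure D2:**
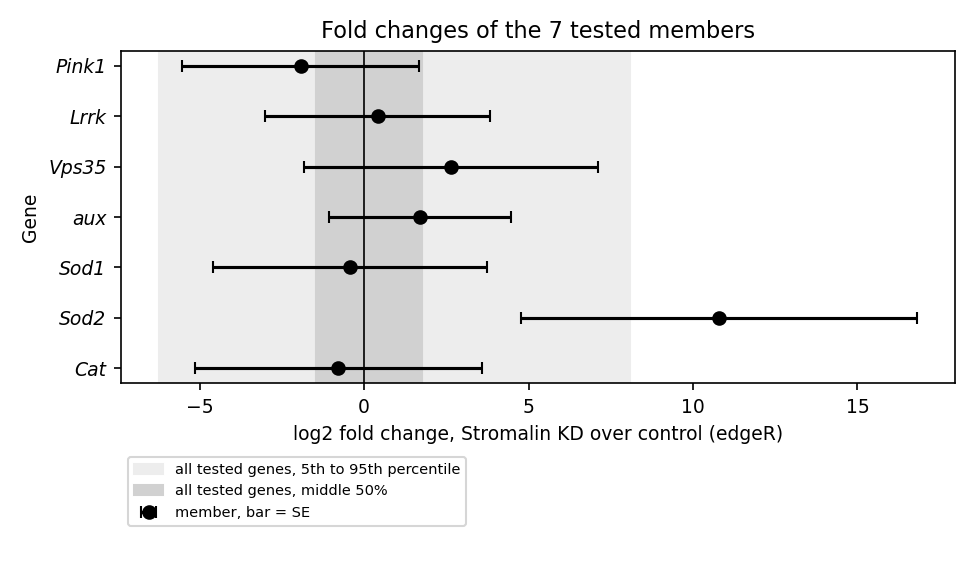
Log2 fold change of Stromalin KD over control (horizontal axis, edgeR) for the 7 tested genes, with bars of 1 SE, over grey bands that hold the middle 50% and the 5th to 95th percentile (-6.24 to 8.08) of all tested genes. The SE was computed from the fold change and the F statistic. Only Sod2, at 10.78, lies outside the wider band, and the bars of the other 6 genes cross 0.

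**Figure D3:**
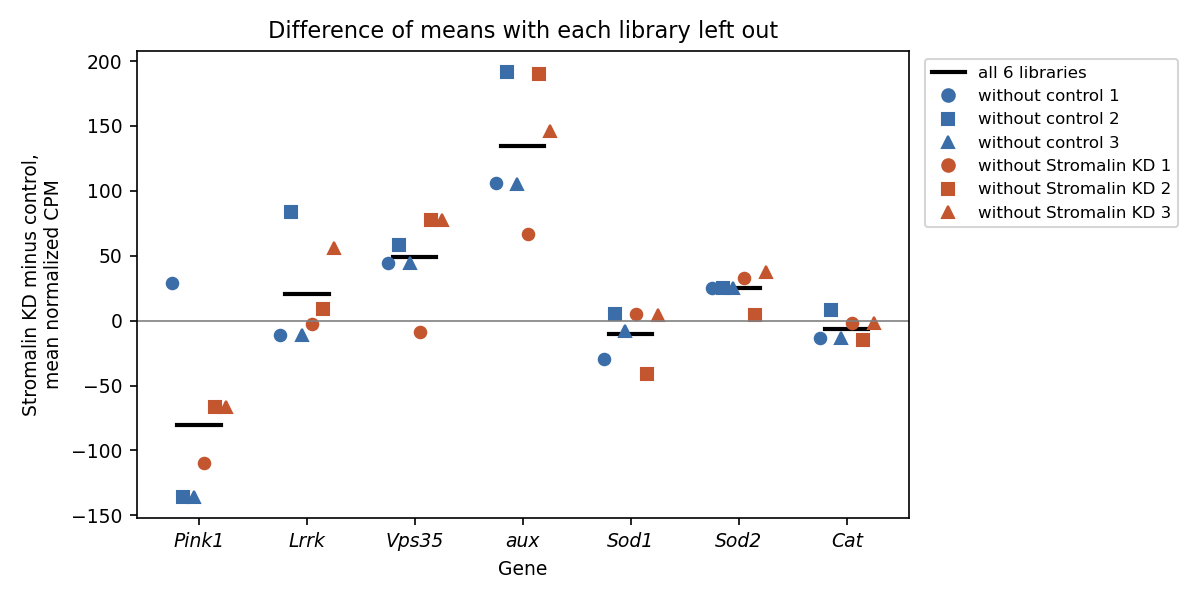
Difference of mean normalized CPM, Stromalin KD minus control (vertical axis), with all 6 libraries (black bar) and with each library left out (points). The difference of aux stays positive throughout, whereas those of Pink1, Lrrk, Vps35, Sod1 and Cat fall on both sides of 0. That of Sod2 could not turn negative, since every control is at 0.

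The plot of differences with each library left out shows how far single libraries carried these values: 5 of the 7 genes changed sign for at least 1 library left out. Sod2 could not change sign, because every control was at 0, so its constant sign is no sign of stability. The genes whose pattern over the 6 libraries was closest to each of the more often found members are given as a description, without a test, and the points of each pair share their libraries. They were picked for the highest r among the 4093 tested genes, so a high r came with the choice. By Pearson r of log2(normalized CPM + 1), aux was closest to Gprk2 (0.9933), gig (0.9923) and CR42549 (0.9894). Lrrk was closest to Mmp2 (0.9855), Xe7 (0.9812) and Osbp (0.9797), and Sod1 to Teh4 (0.9919), PI4KIIIalpha (0.9675) and 128up (0.9588). The libraries of Vps35 were shared by 229 other genes, those of Cat by 131 and those of Sod2 by 107, each of 1070 found in exactly 2 libraries, so such patterns were common.

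Other genes of the same pathways were read from 7 lists with 96 genes, of which 60 were tested and 18 had no count in any library. None passed the adjusted threshold in edgeR, none had an unadjusted p under 0.05 and none was called by DESeq2. Of all tested genes, 0.0489% and 3.23% did so in edgeR, and DESeq2 called 5.46% of the genes given an adjusted p. Some of the tested listed genes, cnc and AP-2alpha among them, were given no adjusted p by DESeq2. Their median log2 fold change was 0.01, with 30 positive and 30 negative. Groups were disjoint for 3 of the 60 tested genes, beside the 6.62% of all tested genes.

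Over all 17737 genes, 5.64% were found in all 6 libraries and 61.0% had no count. Of the 8 partners of auxilin, 6 were found in all 6 libraries. The chaperone Hsc70-4 ranged from 499 to 2062 TPM with an edgeR log2 fold change of -0.76 (SE 0.87). EndoA, the endophilin of synaptic endocytosis, and the clathrin assembly protein lap followed, with medians of 368 and 254 TPM. The clathrin heavy chain gene Chc, with counts of 208, 2488 and 703 in the controls and 3285, 1144 and 3663 in the Stromalin KD libraries, was also found throughout.

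Among 12 genes of superoxide dismutase and hydrogen peroxide removal, none was found in all 6 libraries and 6 had no count at all. These 6 were Prx5, Prx2540-1, Prx2540-2, Prx6005, Irc and Pxt, of which Prx2540-1 and Prx2540-2 are near copies whose reads may not be told apart. The cytosolic peroxiredoxin Jafrac1 had the highest median, at 116 TPM, and PHGPx, a glutathione peroxidase relative, had 67.2 TPM. The other 10 genes of this list had a median of 0 TPM. All 3 tested genes of this list had negative fold changes, with a median of -1.57 and a median SE of 3.61.

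**Figure D4:**
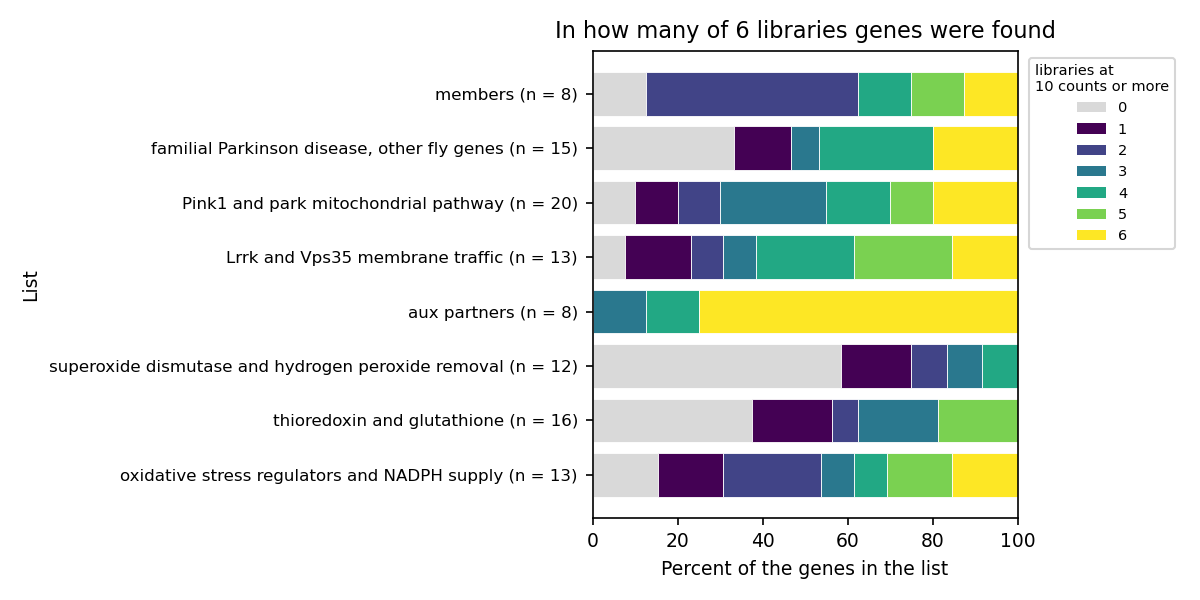
Percent of the genes of each list (horizontal axis) by the number of libraries, 0 to 6, in which they reached 10 counts. The auxilin partners are mostly found in all 6 libraries, while in the superoxide dismutase and hydrogen peroxide list 7 of 12 genes reach 10 counts in none.

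Of 16 thioredoxin and glutathione genes, 7 were tested, 2 with positive and 5 with negative fold changes. Glutathione S-transferase GstD1 had a median of 623 TPM, thioredoxin Trx-2 of 148 and the thioredoxin reductase Trxr-1 of 50.4. Of 13 regulators and NADPH-supplying genes, 9 were tested, with malic enzyme Men (165 TPM), the ferritin subunit Fer2LCH (120) and isocitrate dehydrogenase Idh (79.5) the highest. Idh had an edgeR log2 fold change of -3.37 (SE 2.04) at an unadjusted p of 0.0987. The transcription factor gene cnc, the fly relative of Nrf2, had 1369, 2851 and 1552 counts in the controls against 1591, 7 and 0 in the Stromalin KD libraries. Its groups were disjoint in normalized CPM though not in raw counts or TPM, and its edgeR log2 fold change was -1.88 (SE 2.63) at an unadjusted p of 0.475. DESeq2 called cnc lower only without Stromalin KD 1, at an adjusted p of 0.00801. That fit left the 7 and 0 counts and called 18.4% of the genes given an adjusted p.

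In the pathway of Pink1 and park, 16 of 20 genes were tested, 10 with positive and 6 with negative fold changes. Atg8a, a ubiquitin-like protein of autophagosome membranes, had the highest median at 567 TPM, followed by TER94 at 106 and clu at 74.6. The autophagy kinase gene Atg1 had 290, 27 and 51 counts in the controls against 8, 0 and 0 in the Stromalin KD libraries. Atg1 is named because these groups did not overlap, which by itself fixes the exact permutation p at 0.1, the smallest possible. That p therefore adds no support. The edgeR log2 fold change was -5.71 (SE 5.21) at an unadjusted p of 0.273. DESeq2 called Atg1 lower only without Stromalin KD 1, at an adjusted p of 0.0252. Atg1 then had counts in controls only, in a fit that called 18.4% of the genes given an adjusted p.

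Of 13 genes of membrane traffic around Lrrk and Vps35, 10 were tested, 6 positive and 4 negative. The small GTPases Rab10, Rab5 and Rab8 had the highest medians, at 262, 234 and 202 TPM. Lysosomal cathepsin D, cathD, had 674, 1374 and 1960 counts in the controls against 1, 104 and 125 in the Stromalin KD libraries. The control mean was 160 ± 84.0 normalized CPM and the Stromalin KD mean 8.30 ± 7.50 (SD, n = 3), with no overlap. The edgeR log2 fold change of cathD was -4.26 (SE 3.70) at an unadjusted p of 0.250. The lack of overlap, for which it is named, fixes the exact permutation p at 0.1, so that p adds no support. cathD was found in the same 5 libraries as Sod1.

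Of 15 other fly genes of familial Parkinson disease, 8 were tested, 4 positive and 4 negative. The gene CG32000 (anne), a relative of human ATP13A2, ranged only from 159 to 249 TPM, with an edgeR log2 fold change of -0.39 (SE 1.26). The translation initiation factor gene eIF4G1 had a median of 336 TPM and an edgeR log2 fold change of 1.44 (SE 1.15), and Vps13 had a median of 123 TPM.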

How the data were processed

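Libraries were grouped by genotype as labeled, 3 control and 3 Stromalin KD, each of 25 neurons. The authors deposited raw counts per gene. A second deposited table holds signal, the counts divided by the authors' DESeq2 size factors, and another deposited table holds TPM. Their processing notes list the build BDGP6, HTSeq 0.9.1 and DESeq2. The aligner, strand setting and handling of molecular identifiers were not given in the sources read. The authors' table of comparisons (mean, log2 fold change, SE, Wald statistic and p-values) was not used.

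Genes reaching 10 counts in 2 or more libraries were fitted with edgeR 4.0.16 (R 4.3.3) on raw counts, with TMM factors, the quasi-likelihood test on genotype, two-sided, and Benjamini-Hochberg adjustment over all of them at 0.05. An edgeR SE here is the absolute log2 fold change over the square root of the F statistic. It is no estimated SE and is not the same quantity as the SE of DESeq2. DESeq2 1.42.0, the tool of the study, was the main alternative. Exact permutation tests used normalized CPM. The p-values measure the spread between these libraries, which the labels call biological replicates and the study collected on separate days. Coordinates are from an Ensembl annotation of BDGP6.

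The 8 genes, lists and markers were chosen with earlier results of these data known. Genes named are the 8, SA, the closest 3 genes by Pearson r of members found in at least 4 libraries, and listed genes that pass a test, are disjoint between groups or are among the 3 highest of their list by median TPM. Listed genes found in exactly the libraries of a rarer member are also named. Cell type markers and genes that share exon bases with a member are named beside the results they touch. Chc and the listed genes with no count were picked after their values were seen. Alternatives were other scaling factors, count filters and tests, rRNA genes left out, limma 3.58.1 on log2 TPM, the replicate number as a block, other detection limits and leaving out each library. DESeq2 leave-outs and detection without control 2 were chosen after seeing the data. The edgeR fit was run on simulated counts, and the outcome is not given here.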

Additional observations from a re-analysis of the deposited data

How the results depend on the processing

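Neither any of the 8 genes nor any listed gene was called in edgeR or limma under any alternative, leave-outs included, nor in DESeq2 at its default settings with all libraries. DESeq2 without Cook's and independent filtering, which called 21.1% of 6922 genes, called 1 of the 8 (Sod2, log2 fold change 10.04, adjusted p 0.0223) and 5 listed genes. DESeq2 leave-outs, which called 16.3% to 19.8% of the genes given an adjusted p, called 0 to 2 of the 8 and 2 to 8 listed genes, and the cause was not tested. Sod2 was called at fold changes of 10.14, 23.71 and 10.61 without control 3, Stromalin KD 1 and Stromalin KD 3, and Lrrk (11.56) and Cat (20.99, from -0.73 with all libraries) without control 2.

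Leaving out 1 library in turn gave log2 fold changes of -0.17 to 12.48 for Lrrk and -6.02 to 0.25 for Sod1 in edgeR. In DESeq2 the ranges were -10.92 to 23.16 for Pink1, -0.062 (without control 1; -0.060 without control 3) to 11.56 for Lrrk, -4.71 to 23.71 for Vps35, -5.91 to 0.11 for Sod1 (0.074 without control 2 and 0.059 without Stromalin KD 3), 7.64 to 23.71 for Sod2, -22.60 to 20.99 for Cat and 1.28 to 6.46 for aux. Pink1, Vps35, Sod2 and Cat could not be fitted in edgeR without either of the libraries that hold them, nor under a filter of 10 counts in 3 libraries or filterByExpr. No other scaling in edgeR turned the sign of any of the 7 tested genes, while limma on TPM moved the median of all genes from 0.07 to between 0.20 and 0.24.

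With the replicate number as a block, 0 of the 8 genes and 1 of 4093 genes were called, against 0 and 2 without it. The edgeR log2 fold change of Pink1 moved from -1.93 to 0.023. Its SE of 0.51 there was computed from that fold change and is no sign of a precise estimate. Same-numbered libraries showed no shared deviation (r from -0.02 to 0.02), so the numbers were not taken to pair the samples.

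The 23 gene and library combinations became 25 at a limit of 1 count, 24 at 3, 20 at 30, and 18 without control 2.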

Other observations

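Some listed genes outside the naming rule were seen in very few libraries and were picked after their values were seen. The Parkinson disease gene dj-1beta, which encodes a redox-sensitive protein, had 3519 counts in control 1 and 0 in the other 5 libraries, while its relative DJ-1alpha had 198 and 8 counts in Stromalin KD 1 and 2 and 0 elsewhere. Ccs, the copper chaperone of Sod1, had 315 counts in control 2 only, and the mitochondrial peroxiredoxin gene Prx3 had 959 counts in control 2, 2 in control 1 and 0 elsewhere. Of the retromer partners of Vps35, Vps26 had 1838 counts in control 1 and 425 in Stromalin KD 3, and Vps29 had 17 counts in control 1, with 0 in the remaining libraries. The sorting nexin gene Snx3 had 103 counts in control 2 and 428 in Stromalin KD 1, the libraries that hold Vps35, and also 38 and 486 in Stromalin KD 2 and 3 and 7 in control 1. Rab39, a small GTPase gene linked to Parkinson disease in human, had 3707, 961 and 0 counts in the controls against 36, 0 and 0 in the Stromalin KD libraries, at an unadjusted edgeR p of 0.0655. None of these genes passed the edgeR threshold, and dj-1beta, DJ-1alpha, Ccs, Prx3 and Vps29 were under its count filter. DESeq2 with its filters off, which called 21.1% of 6922 genes, called dj-1beta, Ccs and Prx3 lower, as well as the listed genes Keap1 and Mul1. Some DESeq2 leave-outs called dj-1beta, Prx3, Rab39 or Keap1 lower. In those fits these genes had counts in controls only and entered through the group where they are high, so the calls are no independent support.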
